A study of Mus musculus with 12 samples.

Results

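Immediate early genes are the first genes to be transcribed when a cell is stimulated, and 10 of them that code for transcription factors or their cofactors are described here in sensory neurons of the mouse tongue. They were Fos, Fosb and Fosl2 of the FOS family, Jun, Junb and Jund of the JUN family, the zinc finger factor Egr1, the orphan nuclear receptor Nr4a1, and the regulators Ier2 and Btg2. The members were chosen by name, and all 10 were found among the 22609 gene symbols with deposited read counts. Expression was measured by bulk RNA sequencing in 12 libraries of trigeminal ganglion (TG) cells that took up a wheat germ agglutinin dye (WGA-488) from the tongue and were sorted by their fluorescence. The 4 groups had 3 libraries each, namely normal males (MN), males with a tongue tumor (MT), normal females (FN) and females with a tongue tumor (FT). All mice were adult Balb/c athymic nude animals, a strain that lacks mature T cells but keeps other immune cells such as macrophages. Tumors grew from HSC3, a cell line of a human oral squamous cell carcinoma, and ganglia were taken at day 15 in every group, after dye injection at day 13. A library of a normal group pooled 4 ganglia from 2 mice, whereas a tumor library pooled 4 ganglia of the tumor side from 4 mice. Normal and tumor groups therefore also differed in the number of mice pooled and in the side of the ganglia. According to the labels the normal mice were given no cells, whereas the methods describe an injection of human oral keratinocytes, and which of these applied was not settled. All ganglia were digested with enzymes before the sort, and no undissociated tissue was sequenced here.

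FOS and JUN proteins act as pairs. A FOS protein needs a JUN partner to bind DNA, JUN proteins can also pair with each other, and the dimer, called AP-1, binds short sites in promoters and enhancers. Transcription of Fos, Egr1, Ier2 and Nr4a1 starts within minutes of calcium entry, growth factor signaling or injury and needs no new protein, because the factors that bind their promoters, CREB and the serum response factor, are already present in the resting cell. In neurons these genes are widely used as markers of recent activity, and their mRNAs are short-lived.

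Each library had between 4592891 and 8922011 gene reads, and values are given as CPM, the reads of a gene for every 1000000 gene reads of its library. The members together held 0.114% to 0.232% of the gene reads. FN replicate 2, FT replicate 2 and FT replicate 3 stood apart in the share of all counts that fell to reads mapped to several places. This share was 56.0%, 68.4% and 52.6%, against 43.0% to 45.5% in the other 9 libraries. It is not a share of reads if such a read was counted at each of its places. Results that rest on the libraries that stood apart are given with and without them. The 16 sensory neuron markers, among them Tubb3, Prph and Scn10a, were counted in every library and summed to between 20000.0 CPM in FT replicate 2 and 34142 CPM in FN replicate 2. Markers of other cells were also present. In bulk samples, fewer cells of a type and less RNA per cell cannot be told apart. The labels describe the 3 libraries of a group as independent samples, and counting intervals are not given because each pair of replicates differed by more than the counting error.

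The stretch of DNA just upstream of the transcription start is shown for 6 members, because CREB is known to bind the short cAMP response element in such promoters. The RefSeq promoter table of build GRCm38.p6 matched 8 members, and Egr1 and Ier2 had no entry. Within 250 bases before the start, the half-site TGACG was found on either strand in 5 of the 8, namely Fos, Fosb, Junb, Btg2 and Nr4a1, and in 17.8% of all 32851 promoters. In the sequences below, printed 5′ to 3′ on the strand of the gene and ending at the base before the start, capitals mark that half-site. On the opposite strand it reads CGTCA, and in Btg2 both orientations overlap in the full palindrome TGACGTCA, which 1.55% of all promoters held. The Jun promoter is also shown and held no half-site in this window, nor did those of Fosl2 and Jund. Whether the half-sites bear on the levels of the members was not tested.
Fos, chr12:85473740-85473889, plus strand: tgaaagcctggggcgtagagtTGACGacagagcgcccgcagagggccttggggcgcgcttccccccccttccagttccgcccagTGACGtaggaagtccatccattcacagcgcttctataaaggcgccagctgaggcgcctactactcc
Fosb, chr7:19310046-19310195, minus strand: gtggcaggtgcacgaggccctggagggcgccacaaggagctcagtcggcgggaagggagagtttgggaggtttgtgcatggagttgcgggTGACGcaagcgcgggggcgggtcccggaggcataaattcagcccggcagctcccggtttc
Junb, chr8:84978749-84978898, minus strand: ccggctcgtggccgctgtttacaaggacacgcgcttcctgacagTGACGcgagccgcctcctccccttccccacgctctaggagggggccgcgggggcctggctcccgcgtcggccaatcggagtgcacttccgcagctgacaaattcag
Nr4a1, chr15:101266596-101266845, plus strand: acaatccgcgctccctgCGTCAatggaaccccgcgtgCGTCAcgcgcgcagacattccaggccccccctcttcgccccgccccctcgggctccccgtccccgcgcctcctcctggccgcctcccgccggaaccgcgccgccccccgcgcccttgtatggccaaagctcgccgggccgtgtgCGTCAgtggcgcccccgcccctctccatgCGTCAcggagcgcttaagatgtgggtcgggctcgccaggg
Btg2, chr1:134079156-134079355, minus strand: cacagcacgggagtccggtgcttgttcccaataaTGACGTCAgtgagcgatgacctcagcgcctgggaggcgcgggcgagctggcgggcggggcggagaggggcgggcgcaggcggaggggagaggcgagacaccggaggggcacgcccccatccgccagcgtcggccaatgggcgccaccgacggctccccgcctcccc
Jun, chr4:95052223-95052372, minus strand: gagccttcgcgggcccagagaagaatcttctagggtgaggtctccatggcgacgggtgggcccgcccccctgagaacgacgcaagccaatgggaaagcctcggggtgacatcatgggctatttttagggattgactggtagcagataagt

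Nr4a1 held 4 half-sites, whose upstream edges lay 233, 213, 69 and 40 bases before the start, and Fos held 2, at 129 and 66 bases. Of other short motifs, the TATA box sequence TATAAA was found in Fos alone among the 8 members (12.4% of all promoters), CCAAT in Jun, Junb and Btg2 (33.8% of all) and the GC box GGGCGG in 6 members (32.7% of all), each searched on both strands. The AP-1 site TGANTCA and the CArG box bound by the serum response factor were found in 0 of the 8 windows, against 6.75% and 1.47% of all promoters, which says only that these letters were not within the 250 bases searched. A match is a description of the sequence and not a measured binding site.

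The members are short genes. In GENCODE mouse release M1, 4 of the 10 (Jun, Junb, Jund and Ier2) have a single exon block, against 12.4% of the 21627 symbols with an exon length, and 7 span fewer than 5000 bases from start to end (24.6% of all). Of the 10 genes, 7 carry at least 2 copies of ATTTA in the 3′ UTR, the core of AU-rich elements that mark mRNAs for rapid decay, against 42.2% of the 18745 symbols with an annotated 3′ UTR. Fosl2 had the most copies, 8, and Ier2 had none.

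Levels of different genes were compared per exon length, as RPKM. Fos had the highest mean over the 12 libraries, 195 RPKM, followed by Jun with 138 RPKM and Junb with 120 RPKM. The means of Nr4a1, Ier2, Btg2 and Egr1 were 73.5, 52.8, 48.9 and 48.2 RPKM, whereas Jund, Fosb and Fosl2 were at 8.55, 4.09 and 3.40 RPKM. Among the FOS family, Fos therefore made up 94.6% to 98.6% of the summed RPKM in each library. In the JUN family, Jun held 37.4% to 64.2% and Junb 34.1% to 61.4%, with Jund between 1.04% and 1.72% in 10 libraries and higher in FN replicate 2 and FT replicate 2, where it reached 12.9%.

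**Figure D1:**
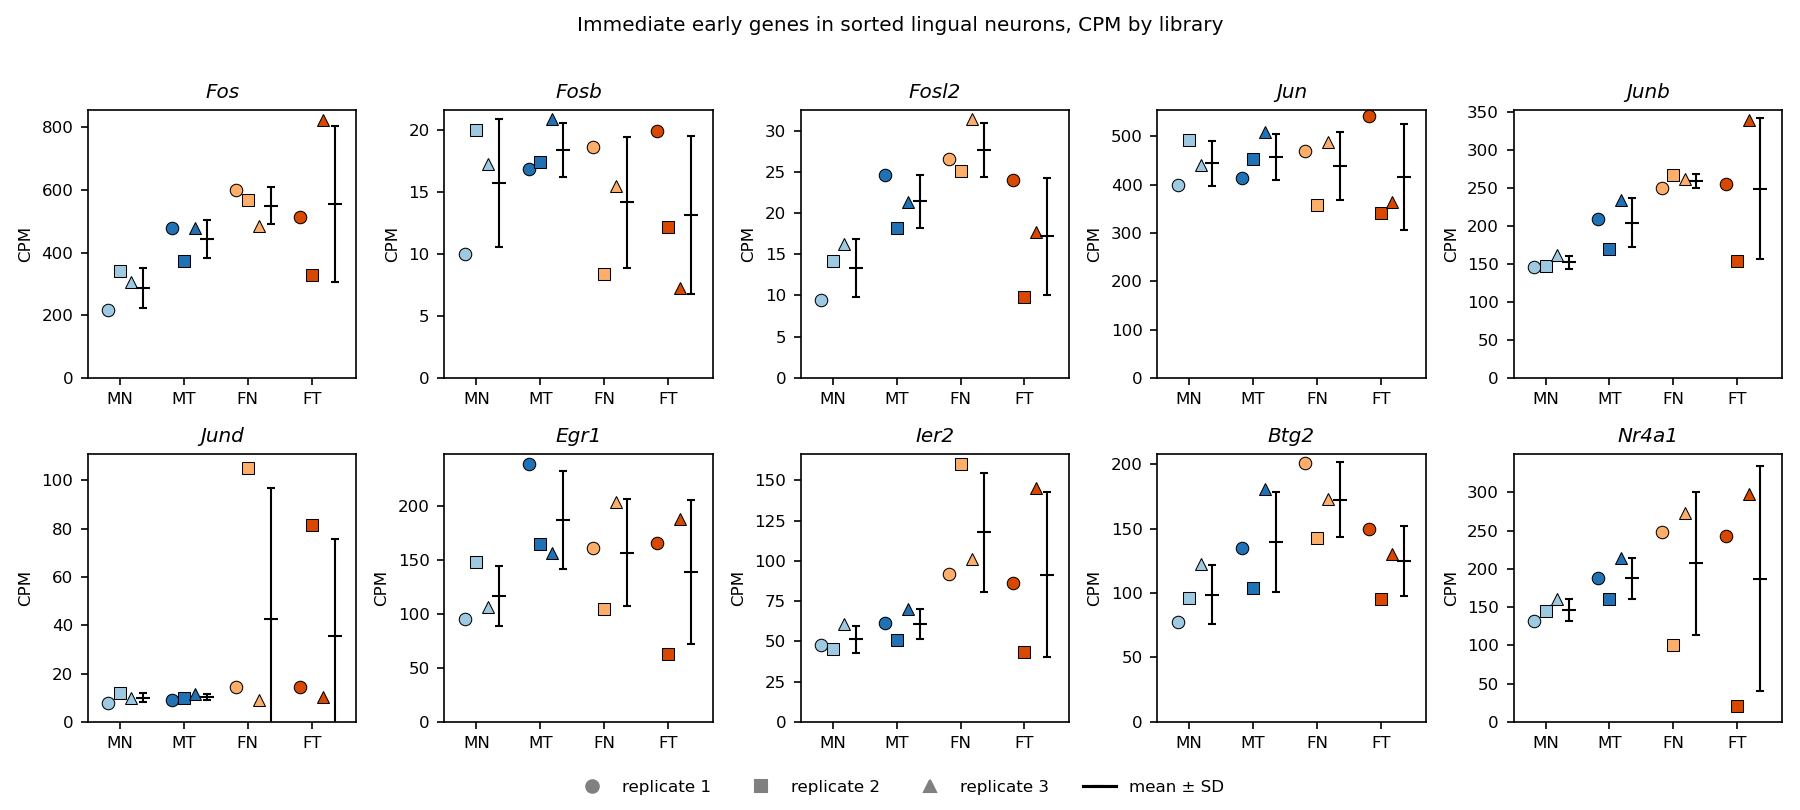
Level of each member (CPM, linear axis from 0) by group, with 1 point per library, the mean as a bar and the SD as an error bar, cut at 0 where it would pass below it. For Fos, Fosl2, Junb, Egr1 and Nr4a1 the 3 MT points lie above the 3 MN points, and FN replicate 2 and FT replicate 2 set the high Jund values of 105 and 81.6 CPM.

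The first comparison, MT versus MN, asked which genes differ in lingual neurons of males when a tumor grows in the tongue. All 10 members had a higher fitted level in MT than in MN, with a median log2 fold change of 0.41 from edgeR, where the median over all 13322 genes tested was 0.00. Fos, Fosl2 and Egr1 met the criteria used for differential expression, namely a fold above 1.5, an unadjusted p under 0.05 and a mean above 5 CPM in at least 1 of the groups. The same criteria were met by 1.63% of all genes in either direction and by 1.1% as higher in MT. None of the members passed an edgeR adjusted p of 0.05 over all genes, as 0.045% of genes did. An unadjusted p under 0.05 was found for 6 members (Junb, Nr4a1 and Btg2 besides those 3) and for 922 of the 13322 genes tested. DESeq2 gave 1 member, Fos, an adjusted p under 0.05 (DESeq2 adjusted p = 0.0248), as it did 0.383% of all genes, and limma-voom with sample quality weights gave none. The MT libraries all lay above the MN libraries for 5 members, Fos, Fosl2, Junb, Egr1 and Nr4a1, and for 5.91% of all genes tested.

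The male difference depended on single libraries. MN replicate 1 had the lowest level of its group for 9 of the 10 members, and the share of all genes lowest there was not computed. Without MN replicate 1 or without MT replicate 1, 0 members met the criteria. Of all genes tested, 170 of 13537 met them without MN replicate 1 and 384 of 13571 without MT replicate 1. Fos then had a log2 fold change of 0.47 without MN replicate 1 and 0.56 without MT replicate 1, both still at an unadjusted p under 0.05 but below the fold of 1.5. A fit of all 12 libraries, in which the female groups widen the common estimate of the spread, also left 0 members past the criteria, with a log2 fold change of 0.64 for Fos (edgeR adjusted p = 0.99998). In that fit 30 of all 13835 genes met the criteria.

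The second comparison, FN versus MN, addressed differences between the sexes without a tumor, and its fold changes share the MN libraries with those of MT versus MN. The study reports that more cells were sorted from female than from male samples, with and without a tumor. The part of cell number in the levels of the members was not tested. A higher fitted level in FN was found for 9 of the 10 members, and the median log2 fold change was 0.90 against 0.06 for all 13344 genes tested. The criteria were met by 6 members, Fos, Fosl2, Junb, Jund, Ier2 and Btg2, all higher in FN, and by 4.89% of all genes, or 4.18% counting only those higher in FN. None had an edgeR adjusted p under 0.05 over all genes (each of the 6 was at 0.631), and 0.03% of genes did. Limma-voom with quality weights placed 7 members below that threshold, along with 7.64% of all genes, and DESeq2 none. FN lay above MN in every library for 5 members (Fos, Fosl2, Junb, Ier2 and Btg2) and for 9.65% of all genes.

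This comparison also depended on single libraries. In the fit of FN replicates 1 and 3 with the 3 MN libraries, the log2 fold changes were 0.86 for Fos, 1.06 for Fosl2, 0.70 for Junb, 0.86 for Ier2, 0.87 for Btg2 and 0.79 for Nr4a1, and all 6 rose at an edgeR adjusted p between 0.0011 (Nr4a1 and Junb) and 0.0111 (Fosl2). Over all 13624 genes of that fit, 5.61% had an adjusted p under 0.05 and 7.24% met the criteria. Egr1 then met the criteria as well, at 0.59 with an edgeR adjusted p of 0.0537, and the FN libraries lay wholly above the MN libraries for 7 members, now with Egr1 and Nr4a1, and for 23.1% of all genes. Jund no longer met the criteria, at 0.17. The count fell to 2 members, Fosl2 and Ier2, without MN replicate 1 (1.82% of genes) and to 3 without MN replicate 2 (1.51% of genes).

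Markers of non-neuronal cells moved with this comparison of the sexes. The 12 macrophage markers, among them C1qa and Csf1r, summed to 23.4 to 38.7 CPM in MN and to 131 to 304 CPM in FN, and all 8 that could be tested met the criteria as higher in FN. The 9 markers of satellite glia, the cells that wrap the neuron bodies, summed to 5072 to 6073 CPM in MN and 9229 to 18272 CPM in FN, with Apoe, Sox10 and Sparc meeting the criteria as higher. The 10 endothelial markers summed to 527 to 1239 CPM in MN and 1560 to 1630 CPM in FN (Egfl7, Esam and Ly6c1 met the criteria as higher), and the 8 fibroblast markers to 153 to 210 CPM in MN and 379 to 1208 CPM in FN (Apod, Dcn and Mgp as higher). Sums in MN and FN were 1946 to 2010 CPM and 2008 to 2284 CPM for 7 markers of myelinating Schwann cells (0 met the criteria), 101 to 169 CPM and 143 to 301 CPM for 8 of pericytes and smooth muscle (2 as higher), and 11.0 to 65.6 CPM and 57.7 to 346 CPM for 7 of neutrophils (2 of 5 tested as higher). Sensory neuron markers summed to 26506 to 28144 CPM in MN and 23386 to 34142 CPM in FN, where 1 of 16, Scn10a, met the criteria as lower. In the fit without FN replicate 2 the criteria were met as higher in FN by 10 of 10 macrophage markers, 5 of 9 of satellite glia, 9 of 10 endothelial and 4 of 8 of fibroblasts, and as lower by 3 of 16 of sensory neurons. Between the male groups the macrophage sum was 13.1 and 21.1 CPM in MT replicates 1 and 2 and 247 CPM in MT replicate 3, with C1qa and Cd74 meeting the criteria as higher among 7 tested. The fibroblast sum was 243 to 430 CPM in MT, with Apod meeting the criteria as higher and Col3a1 as lower. Of the macrophage markers, Cx3cr1 was at 0 in 1 library and Ptprc in 2. The part of these cells in the levels of the members was not tested.

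Within the FOS family, Fos itself is the founding member and the classical marker of neuronal activation. The gene is at 86814840 to 86818223 of chromosome 12 in mm9. Levels were 215, 340 and 306 CPM in MN replicates 1 to 3 and 477, 374 and 478 CPM in MT replicates 1 to 3, so that the male groups did not overlap. The means were 287 ± 64.6 CPM in MN and 443 ± 59.7 CPM in MT (SD, n = 3 each), a log2 fold change of 0.64 (standard error, SE, 0.16, edgeR adjusted p = 0.358). In FN the libraries held 600, 566 and 484 CPM, all above the highest MN library, and the mean was 550 ± 60.0 CPM (SD, n = 3). The log2 fold change of FN versus MN was 1.07 (SE 0.31, edgeR adjusted p = 0.631). FT replicates 1 to 3 held 514, 329 and 824 CPM, which spans the whole FN range. In the order of group means, FT, FN, MT and MN, the first pair overlapped, whereas the lowest FN library was just above the highest MT library, a pair of groups that differs in both sex and tumor and was not tested.

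Fosl2, which codes for FRA2, a FOS protein that lacks the strong activating end of c-Fos, also differed between the male groups, at a much lower level than Fos. In mm9 it spans 32438845 to 32460204 of chromosome 5. MN replicates 1 to 3 held 9.42, 14.2 and 16.3 CPM and MT replicates 1 to 3 held 24.7, 18.2 and 21.4 CPM, again without overlap. The log2 fold change was 0.70 (SE 0.22, edgeR adjusted p = 0.544). FN libraries were at 26.5, 25.1 and 31.4 CPM and FT libraries at 24.0, 9.80 and 17.7 CPM, so that every FT library lay below every FN library. Fosl2 was the only member for which this held, as it did for 1.15% of all genes tested in FT versus FN. Without FN replicate 2 and FT replicate 2 it held for 2 members, Fosl2 and Btg2, and for 25.9% of all genes. For Fosl2, FT versus FN gave a log2 fold change of -0.62 (SE 0.53, edgeR adjusted p = 0.9999). FN versus MN gave 1.16 (SE 0.29, edgeR adjusted p = 0.631).

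Fosb, whose splice form ΔFosB builds up on repeated stimulation in brain, had a Pearson r of -0.18 with Fos over the 12 libraries and of 0.69 over the 9 that did not stand apart. It spans 19888070 to 19895394 of chromosome 7 in mm9 and was counted per gene, so that its splice forms were not separated. The libraries held 9.98, 20.0 and 17.2 CPM in MN, 16.9, 17.4 and 20.9 CPM in MT, 18.6, 8.35 and 15.5 CPM in FN and 19.9, 12.2 and 7.25 CPM in FT. All 4 groups overlapped, and the log2 fold change was 0.23 for MT versus MN (SE 0.24) and -0.10 for FN versus MN (SE 0.34). The 2 female libraries with the lowest values, FN replicate 2 and FT replicate 3, were among those that stood apart.

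In the JUN family, Jun codes for c-Jun, the main partner of c-Fos and a gene that sensory neurons also switch on after axon injury. Its mm9 position is 94715725 to 94718913 on chromosome 4. Jun was the steadiest member, with the smallest ratio of its highest to its lowest library, 1.59. MN held 399, 492 and 441 CPM, MT 414, 452 and 509 CPM, FN 469, 358 and 489 CPM and FT 542, 341 and 365 CPM. All 4 groups overlapped, and the log2 fold change was 0.06 for MT versus MN (SE 0.10) and 0.07 for FN versus MN (SE 0.24). In GENCODE the locus overlaps BC042782 on the opposite strand, and since SMART-seq2 libraries do not mark the strand, reads of the pair cannot be told apart where they overlap.

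Junb, a JUN protein that activates transcription less than c-Jun at many sites, differed more. Its mm9 position is 87500811 to 87502617 on chromosome 8. MN replicates held 146, 148 and 162 CPM, a narrow range, and MT replicates held 209, 170 and 233 CPM. These did not overlap, and the log2 fold change of 0.44 (SE 0.12, edgeR adjusted p = 0.358) was below the fold criterion. FN libraries were at 249, 267 and 262 CPM, all above the highest MT library, which gave 0.90 for FN versus MN (SE 0.27, edgeR adjusted p = 0.631). FT libraries were at 255, 153 and 339 CPM, from within the range of MN to the highest of all 12.

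Jund, the JUN gene with the least inducible expression in most cells, was set by 2 libraries. In mm9 it spans 73221638 to 73224515 of chromosome 8. In 10 libraries its level was between 8.01 and 14.4 CPM, whereas FN replicate 2 held 105 CPM and FT replicate 2 held 81.6 CPM. The log2 fold change was 2.43 for FN versus MN (SE 1.01, edgeR adjusted p = 0.631) and 2.14 for FT versus MT (SE 0.80, edgeR adjusted p = 0.508). Without FN replicate 2 the first was 0.17, and without FT replicate 2 the second was 0.31, so neither met the criteria without that library. The annotated transcript of Jund is 62.7% G and C, higher than 98.5% of genes. In FN replicate 2 and FT replicate 2, the 700 genes with a transcript of 60% or more G and C had a median log2 difference of 0.17 and 0.13 from the 9 other libraries, against -0.51 and -0.56 over all 13219 genes, while Jund differed by 3.26 and 2.90. FT replicate 3 had the same kind of shift, 0.20 against -0.23, with Jund at -0.03. The part of base composition in these values was not tested. Jund also overlaps the antisense gene Gm11175 in GENCODE, and their reads cannot be told apart where they overlap.

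Because AP-1 needs both families, the ratio of Fos to Jun was computed per library from RPKM. It was 0.73, 0.94 and 0.94 in MN replicates 1 to 3 and 1.56, 1.12 and 1.27 in MT replicates 1 to 3, so the male groups did not overlap. FN libraries had ratios of 1.74, 2.15 and 1.34 and FT libraries 1.28, 1.31 and 3.06. The means were 0.87 ± 0.12 in MN, 1.32 ± 0.23 in MT, 1.74 ± 0.40 in FN and 1.89 ± 1.02 in FT (SD, n = 3 each). For 3 libraries against 3, an exact permutation test can give no two-sided p below 0.1, and none was run on the ratio.

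**Figure D2:**
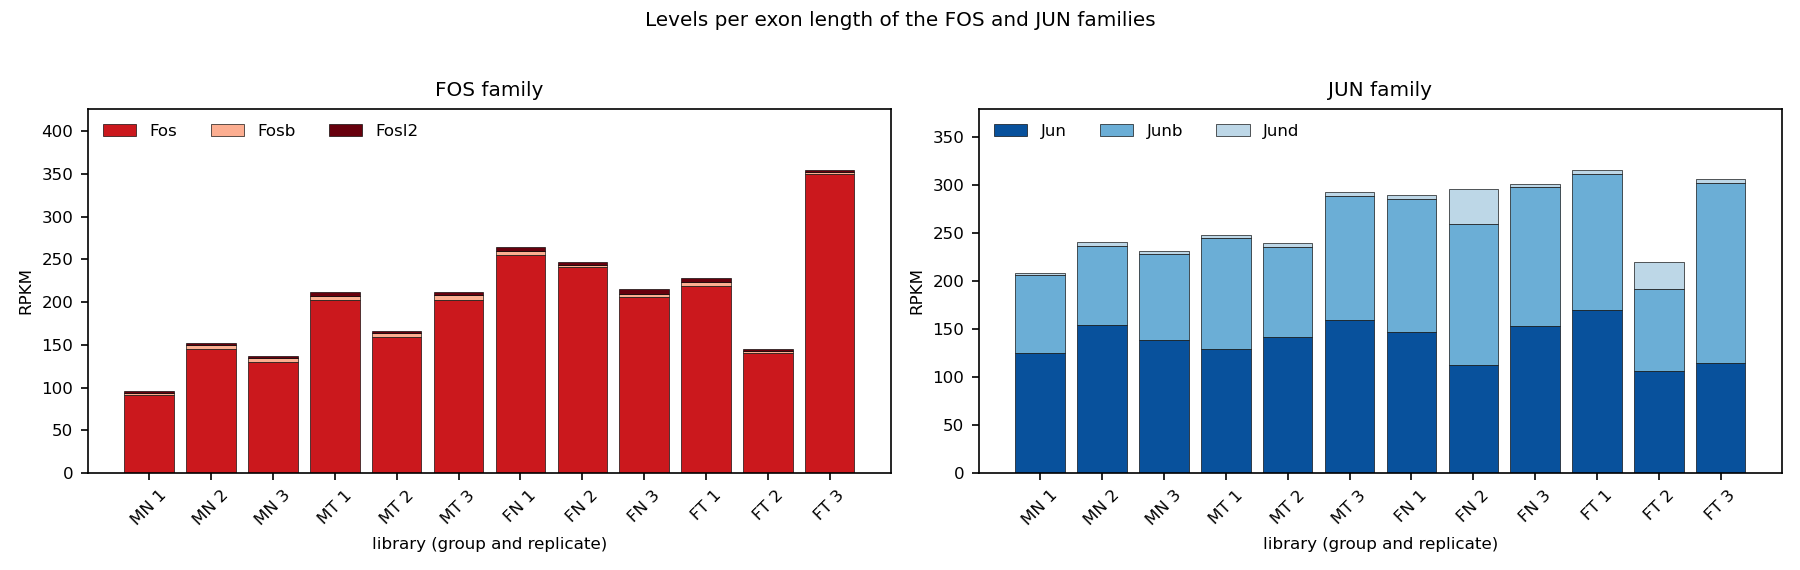
RPKM of each gene of the FOS family (Fos, Fosb, Fosl2) and of the JUN family (Jun, Junb, Jund), on a linear axis from 0, with 1 stacked bar per library. Fos fills at least 94.6% of its family in every library, whereas Junb ranges from 34.1% to 61.4% of its own.

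Egr1 codes for a zinc finger factor that binds GC-rich sites and is induced along with Fos in stimulated neurons. In mm9 it spans 35020861 to 35024638 of chromosome 18. MN replicates held 94.9, 148 and 106 CPM and MT replicates held 238, 164 and 156 CPM, so the groups did not overlap. The log2 fold change was 0.70 (SE 0.21, edgeR adjusted p = 0.461), the largest among the members in the male comparison. FN libraries were at 161, 105 and 203 CPM and overlapped MN through FN replicate 2. FT libraries were at 166, 62.7 and 187 CPM, and FT replicate 2 was the lowest of the 12. The locus overlaps Gm17507 on the opposite strand.

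Nr4a1, also called Nur77, is an orphan nuclear receptor that needs no known natural ligand to act. The mm9 position is 101097277 to 101105223 on chromosome 15. Its levels in MN were 131, 145 and 160 CPM and those in MT 188, 160 and 214 CPM, with the lowest MT library just above the highest of MN. The log2 fold change was 0.38 (SE 0.12, edgeR adjusted p = 0.527) and below the fold criterion. FN replicates 1 and 3 held 248 and 273 CPM and FT replicates 1 and 3 held 243 and 297 CPM, while FN replicate 2 held 100.3 CPM and FT replicate 2 held 20.5 CPM. The 2 latter values were the lowest of the 12, and Nr4a1 spread 14.5-fold over the 12 libraries and 2.08-fold over the 9 that did not stand apart.

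Ier2 codes for a small nuclear protein that takes part in transcription, and Btg2 for an antiproliferative cofactor that binds the CCR4-NOT deadenylase. Ier2 lies on chromosome 8 of mm9 from 87185230 to 87186751 and Btg2 on chromosome 1 from 135971747 to 135975697. For Ier2 the males overlapped, with 48.1, 45.2 and 60.8 CPM in MN and 61.5, 51.1 and 70.0 CPM in MT, a log2 fold change of 0.26 (SE 0.14, edgeR adjusted p = 0.784). FN libraries held 91.6, 160 and 101 CPM, all above the highest male library, which gave 1.38 for FN versus MN (SE 0.40, edgeR adjusted p = 0.631). Of the FT libraries, with 86.0, 43.5 and 145 CPM, replicate 2 was the lowest of the 12. For Btg2 the values were 77.2, 96.5 and 123 CPM in MN, 135, 104 and 181 CPM in MT, 201, 143 and 173 CPM in FN and 149, 95.6 and 130 CPM in FT. MT overlapped MN, with a log2 fold change of 0.51 (SE 0.20, edgeR adjusted p = 0.693), whereas FN lay above MN with 0.90 (SE 0.27, edgeR adjusted p = 0.631).

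**Figure D3:**
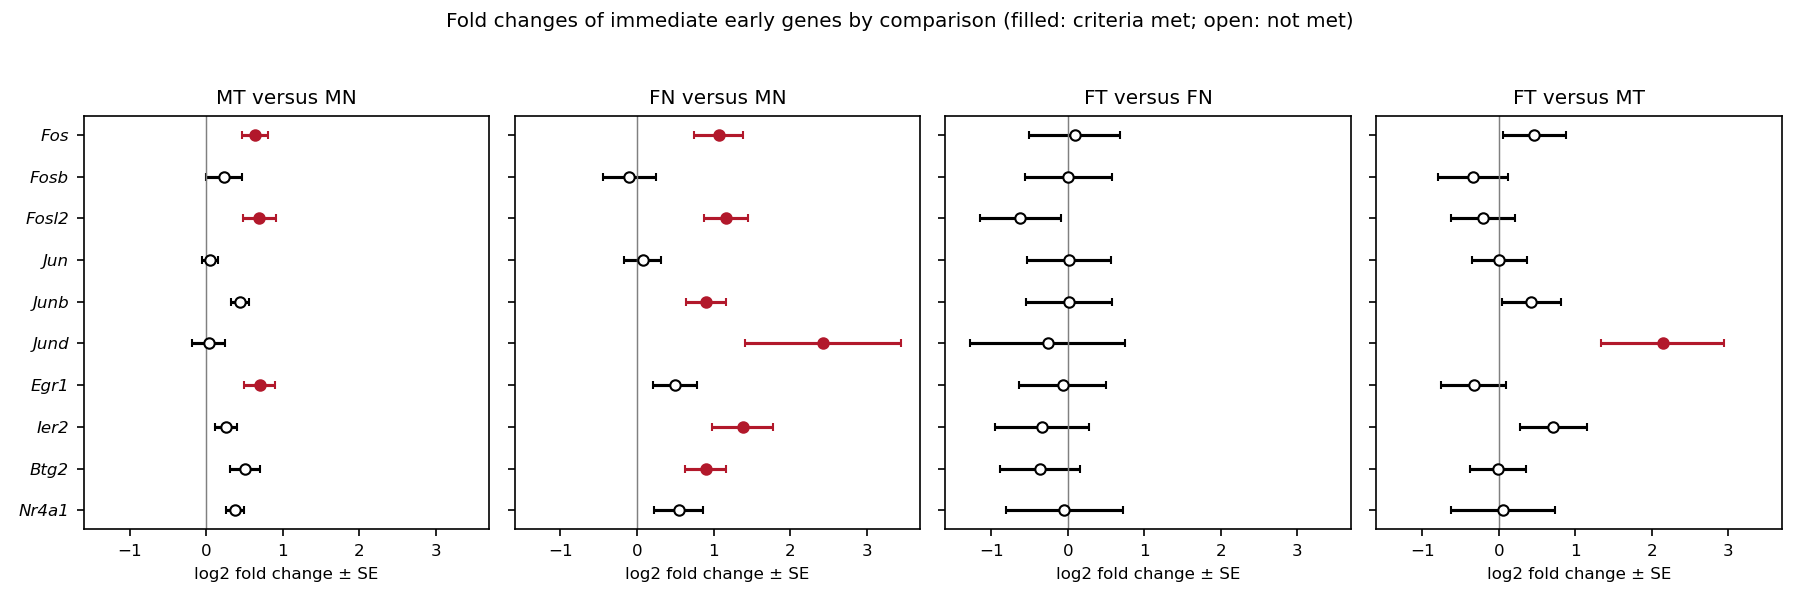
Log2 fold change of each member in the 4 pairwise comparisons from edgeR, with standard errors as bars, and filled red points where the criteria were met. Points for MT versus MN lie between 0.03 and 0.70 with short bars, and those for FT versus FN between -0.62 and 0.09 with bars of at least 0.53.

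The third comparison, FT versus FN, set tumor against normal in females. None of the members met the criteria, and none had an unadjusted p under 0.05 with edgeR, DESeq2 or limma-voom with quality weights. Over all 13408 genes, 1.12% met the criteria and 0% had an edgeR adjusted p under 0.05, with 159 genes at an unadjusted p under 0.05 and 1 gene past the adjusted threshold with limma-voom. The log2 fold changes of the members lay between -0.62 for Fosl2 and 0.09 for Fos, with a median of -0.06 (all genes -0.03) and standard errors from 0.53 to 1.01, against 0.16, 0.12 and 0.21 for Fos, Junb and Egr1 in the male comparison. A change of the size seen in males was therefore not detectable in this fit. With FN and FT replicates 1 and 3 alone, a choice made after seeing the data, Fos was at 0.46 (SE 0.47) and Fosl2 at -0.35 (SE 0.38). With FN replicates 1 and 3 and FT replicate 1, the only female libraries that did not stand apart, Fos was at -0.05 (SE 0.13), Egr1 at -0.11 (SE 0.16), Fosl2 at -0.25 (SE 0.23) and Btg2 at -0.30 (SE 0.16), and again none met the criteria. Here the lone FT library is assumed to vary like the FN libraries.

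FT versus MT gave 1 member, Jund, where 8.93% of 13297 genes met the criteria and 0.0301% had an edgeR adjusted p under 0.05. Of the other members, Ier2 came next, with 0.71 on the log2 scale (SE 0.44, edgeR adjusted p = 0.543), and without FT replicate 2 it met the criteria at 0.97, as did 6.73% of genes. In FT replicate 1 alone against the MT libraries, the median log2 fold change of the members was 0.18, against -0.01 for all genes. Macrophage markers summed to 186 to 344 CPM in FT and satellite glia markers to 7561 to 19955 CPM, against 13.1 to 247 CPM and 4446 to 5733 CPM in MT, and their part in the levels of the members was not tested.

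Whether the tumor effect differed between the sexes was tested in all 12 libraries as the female log2 fold change minus the male one. The estimate was negative for all 10 members, with a median of -0.55 against -0.07 for all 13835 genes, where both are computed from the same MN, MT, FN and FT libraries as the comparisons above. Fosl2 was the 1 member that met the criteria, at -1.36 with an SE of 0.49 and an unadjusted p of 0.0144 (edgeR adjusted p = 0.9998). The criteria were met by 1.13% of all genes, and 0% had an edgeR adjusted p under 0.05, as with DESeq2 and limma-voom, while 203 genes had an unadjusted p under 0.05. Btg2 was next at -0.91 (SE 0.44). In the 9 libraries that did not stand apart, Fosl2 was at -0.96, Egr1 at -0.83, Btg2 at -0.83 and Fos at -0.71, and these 4 met the criteria with an edgeR adjusted p of at least 0.951, where 3.14% of all genes met them. The FT group of that fit is a single library.

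**Figure D4:**
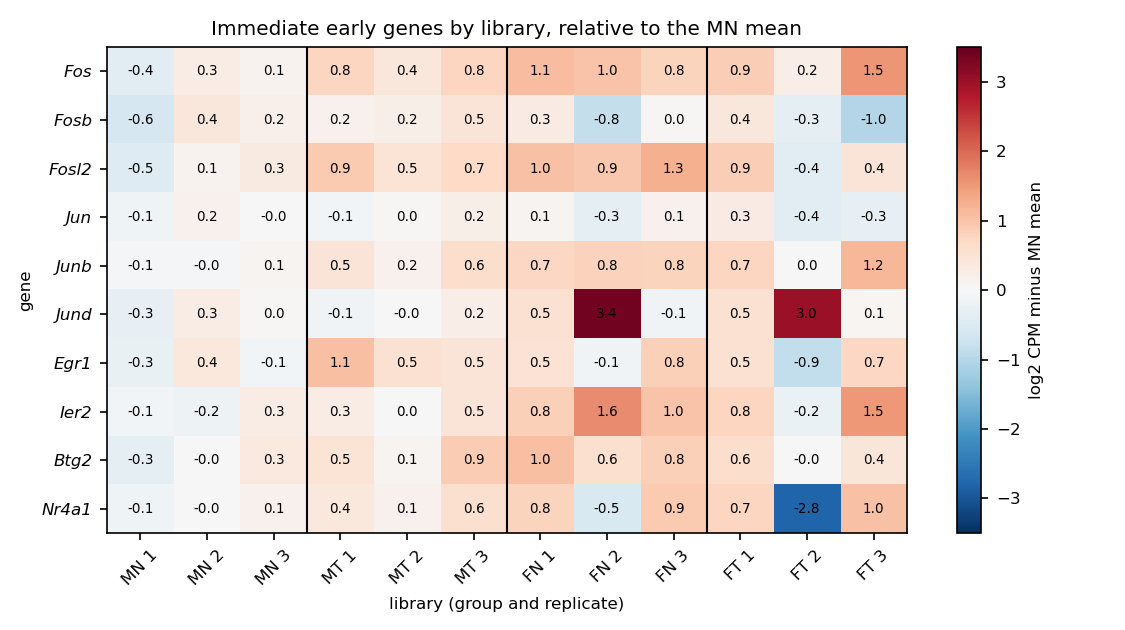
Log2 CPM of each member in each library, minus its mean over the 3 MN libraries, as colors with the values printed in the cells. Most members are above 0 in the MT, FN and FT libraries except FT replicate 2, where most lie below 0 and Nr4a1 is lowest, and the 2 high Jund cells are in FN replicate 2 and FT replicate 2.

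In FT replicate 2, 8 of the 10 members had the lowest level of their group and 4 the lowest of all 12 libraries. The summed level of the members was 1149 CPM there, close to the 1140 CPM of MN replicate 1, against 2013 and 2323 CPM in FT replicates 1 and 3. The sums were 1140 to 1461 CPM in MN, 1521 to 1894 CPM in MT and 1837 to 2080 CPM in FN, so MN, MT and FN overlapped only between MT and FN. MN had the lowest group mean for 8 members and FT for Fosb and Jun, and FN had the highest for 6. The shares of all genes with these orders were not computed either.

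The members varied together to different degrees, described here as the correlation of log2 CPM over libraries. All values of a library share its depth and base composition, which differed between libraries. Over the 45 pairs of members, the median Pearson r was 0.45 in all 12 libraries, from -0.73 for Jund with Nr4a1 to 0.93 for Fos with Junb. In the 9 libraries that did not stand apart it was 0.63, from 0.14 for Jund with Egr1 to 0.98 for Junb with Nr4a1. Among 9542 genes with a mean above 10 CPM, the 5 most like Fos over the 12 libraries were Cdk5rap3 (r = 0.88), Bzw2, Sdc4, Pacsin3 and Mdp1, and over the 9 libraries Socs3 (r = 0.97), Usp2, Snw1, Btg1 and Zfp36 (r = 0.95). The 5 most like the mean of the members were Aldh16a1 (r = 0.89), Mfge8, Wfdc1, Mdp1 and Mxi1 over the 12 libraries, and Btg1 (r = 0.97), Usp2, Gadd45g, Zfp36 and 2810025M15Rik over the 9. The lists from the 12 and the 9 libraries thus named different genes, although both rest on some of the same libraries.

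Of 36 other immediate early genes, 33 could be tested in MT versus MN, and 7 met the criteria, all higher in MT, with a median log2 fold change of 0.50. These values come from the same MN and MT libraries as those of the members and are no separate support. How they depend on MN replicate 1 or MT replicate 1 was not examined. Cyr61, which codes for a secreted matrix protein (CCN1), had the smallest p, with 41.9 ± 8.16 CPM in MN and 96.1 ± 27.9 CPM in MT (SD, n = 3 each) and a log2 fold change of 1.22 (SE 0.21, edgeR adjusted p = 0.128). MN replicates held 34.9, 39.9 and 50.8 CPM of Cyr61 and MT replicates 128, 77.7 and 82.5 CPM. Csrnp1, a nuclear factor, followed at 0.68 (SE 0.14, edgeR adjusted p = 0.240), then Ppp1r15a, the stress-induced phosphatase subunit GADD34, at 0.48 and the zinc finger factor Klf6 at 0.56, both below the fold criterion. The remaining genes that met the criteria were Zfp36, which speeds the decay of AU-rich mRNAs (0.68), Socs3 (0.73), Myc (0.63), Gem (0.64) and Ier3 (0.62), named after their values were seen.

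In FN versus MN, 8 of 33 other immediate early genes met the criteria, each as higher in FN, and the list median was 0.50 on the log2 scale. They were Klf2 (1.98), Zfp36l1 (1.81), Ier3 (1.45), Klf6 (1.05), Zfp36 (0.99), Btg1 (0.92), Cyr61 (0.92) and the MAP kinase phosphatase Dusp1 (0.87), named after their values were seen. Without FN replicate 2, 9 of 34 met the criteria and 11 had an edgeR adjusted p under 0.05, with a list median of 0.53. Klf2 (0.62) and Klf6 (0.51) were then outside the criteria, Zfp36l1 was at 0.96 and Ier3 at 0.67, and Zfp36, Btg1, Cyr61 and Dusp1 were at 1.00, 0.76, 0.89 and 0.77. In FT versus FN, 0 of 34 met them, with the smallest p for Btg1 (log2 fold change 1.49, SE 0.72, edgeR adjusted p = 0.9999), Dusp2 (1.16), Klf2 (-1.06) and Homer1 (1.08). With FN and FT replicates 1 and 3 alone these were 0.22, 1.33, 0.04 and -0.82 for Btg1, Dusp2, Klf2 and Homer1, and Dusp2 met the criteria (SE 0.53, edgeR adjusted p = 0.743), as did 1.51% of all genes in that fit. FT replicate 2 held 162 CPM of Btg1 and 31.1 CPM of Homer1, the highest of the 12 libraries for both genes. The fourth comparison, FT versus MT, had 1 of 34, Btg1, which was at 0.40 without FT replicate 2 and outside the criteria, and the difference between the sexes in the tumor effect had 0 of 34, with a median of -0.52.

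Of 34 partners of AP-1 and regulators upstream of it, 32 were tested in MT versus MN and 1 met the criteria. This was Srf, the serum response factor that switches on Fos and Egr1, with 4.07 ± 0.82 CPM in MN and 6.51 ± 0.59 CPM in MT (SD, n = 3 each) and a log2 fold change of 0.70 (SE 0.27, edgeR adjusted p = 0.693). Mafk, a small MAF protein, and Atf4, the factor of the integrated stress response, came next at 0.26 and 0.19, and the list median was 0.00. In FN versus MN, Srf (0.93) and Nab2, a corepressor of EGR proteins (0.96), met the criteria among 33. In FT versus FN, 0 of 32 met them, and the smallest p belonged to the p38 kinase gene Mapk14 (0.68), Srf (0.68) and the kinase gene Rps6ka2 (-0.87). With FN and FT replicates 1 and 3 alone, 0 of 32 met the criteria, and Mapk14, Srf and Rps6ka2 were at -0.34, 0.13 and -0.87. Without FN replicate 2, Srf was at 0.68 and Nab2 at 1.12 in FN versus MN, and both still met the criteria.

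Heat shock genes that also respond to tissue dissociation were listed because all ganglia were digested before the sort. The 7 genes summed to 1059 to 1222 CPM in 11 libraries and to 1615 CPM in FT replicate 3, the library with the highest Fos, Junb and Nr4a1. Hspa1a and Hspa1b, near-identical genes for the inducible HSP70 whose reads may be split between them, met the criteria as higher in MT than in MN (log2 fold changes 1.38 and 1.28) and in FN than in MN (1.49 and 1.70), while the summed level of the 7 was 1158 to 1222 CPM in MN, 1114 to 1199 CPM in MT and 1059 to 1160 CPM in FN. The part of dissociation in the levels of the members was not tested.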

How the data were processed

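RNA of sorted trigeminal neurons was measured in 12 libraries, 3 in each of MN, MT, FN and FT, with the grouping of the labels. The authors sequenced SMART-seq2 libraries as single reads, used TopHat2 for alignment to mm9 and HTSeq for counting per gene, and the submitters' processing notes also list CASAVA 1.8.2 and SAMtools. The versions of the aligner and counter, the gene annotation and the strand setting are not given in the sources used here. The deposited values are raw read counts for 22609 gene symbols, without normalization or molecular identifiers. Rows that name no gene (76.3% to 88.8% of all counts) were left out. CPM was computed from the 4592891 to 8922011 reads counted on genes per library, and RPKM and mm9 positions from GENCODE mouse release M1, which matched 21627 symbols.

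The 2 groups compared were fitted on their counts by edgeR 4.0.16 (R 4.3.3), using TMM, filterByExpr (minimum count 10, minimum total count 15) and the quasi-likelihood test, with Benjamini-Hochberg adjustment over all genes tested. The difference between the sexes in the tumor effect was fitted in all 12 libraries. The criteria were a fold above 1.5, an unadjusted p under 0.05 and a mean over 5 CPM in 1 group, where the study used RPKM. Standard errors of edgeR fold changes were derived from the test, as the absolute log2 fold change divided by the square root of the quasi-likelihood F statistic. Genes on X and Y stayed in the fits. The test was checked on simulated counts. Alternatives were DESeq2 1.42.0, its size factors within edgeR, limma-voom (limma 3.58.1) with quality weights, library size alone, no filter, a replicate block, fits of 12, 10 and 9 libraries with 4 groups, and leaving out each library, and 3 fits were added after seeing the data.

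The members, the gene and marker lists and the libraries doubted were chosen with earlier results of these data known, and support nothing by their choice. Named besides the members were the 4 other immediate early genes and the 3 AP-1 partners or regulators with the smallest p in MT versus MN and FT versus FN, and the 5 genes most like Fos or the member mean by Pearson r of log2 CPM (prior count 2). Any other gene was named after its values were seen. The marker Ncmap was not analysed here. Promoter sequences are from RefSeq (GRCm38.p6, another build than the counts), 250 bases before the start. Other calculations used Python 3.11.15, numpy 2.4.6, pandas 2.3.3 and matplotlib 3.10.9.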

Additional observations from a re-analysis of the deposited data

Results flagged for a closer look

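Fosl2 is listed because it had an unadjusted p under 0.05 in the test of whether the tumor effect differed between the sexes. The log2 fold change in females minus that in males was -1.36 (standard error 0.49, unadjusted p = 0.0144 from edgeR's quasi-likelihood test). Among the same libraries, every MT library was above every MN library, as for 5.91% of genes, and every FT library was below every FN library, as for 1.15%. The edgeR adjusted p over all 13835 genes was 0.9998, and it ranged from 0.616 to 1.0 over 20 alternatives, in which the estimate lay between -1.56 and -0.96 and met the criteria in 19, the exception being limma-voom with quality weights at -1.03.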

How the results depend on the processing

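Without replicate blocks, the counts of members that met the criteria moved as follows. In MT versus MN, where 3 members met them, the 12-library fit gave 0 (30 of 13835 genes) and limma-voom 1 (294 of 13322). Leaving out single libraries gave 0 to 4 members (170 to 392 genes), while DESeq2 gave 1 member (of 51 genes) an adjusted p under 0.05. In FN versus MN (6 members, 0 after adjustment), leaving out single libraries gave 2 to 7, and 3 members (of 63 genes) in the 9-library fit, 7 (of 1020) with limma-voom and 6 (of 764) without FN replicate 2 had an adjusted p under 0.05, a count that ranged from 0 to 6 when single libraries were left out. In FT versus MT (1 member), the 10-library fit gave 2, where 2447 of 13943 genes met the criteria, and limma-voom gave 0 (1111 of 13297 genes). For the difference between the sexes in the tumor effect (1 member), the 10-library fit gave 2 (724 of 13943 genes) and limma-voom 0 (624 of 13835). Leaving out single libraries gave 1 to 2 members (85 to 995 genes). FT versus FN stayed at 0 members in each of 17 alternatives. The cause of these moves was not tested. Of the fold changes of single members, 779 stayed on the same side of the criteria, 18 came to meet them and 33 no longer did. Among the 779, 96 that met the criteria in neither fit changed sign. Counts over all genes ranged from 30 to 392 in MT versus MN (217 in the main analysis), 22 to 1707 in FT versus FN (150), 206 to 1392 in FN versus MN (653), 379 to 3712 in FT versus MT (1187) and 85 to 995 for the difference between the sexes (157). Library size alone moved the median log2 fold change of all genes in FT versus MT from 0.07 to -0.07.

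The labels give each group replicates 1 to 3, but nothing says that a number marks a shared batch. The deviations of same-numbered libraries correlated at 0.03 to 0.20 in MT versus MN and -0.36 to 0.57 in FT versus FN. With 3 libraries per group, some of which stood apart, these values cannot show whether the numbers pair the samples, and the main fits assumed no pairing. With a replicate block the members that met the criteria numbered 3 in MT versus MN, 0 in FT versus FN, 5 in FN versus MN, 0 in FT versus MT and 1 for the difference between the sexes, and the genes numbered 236, 90, 359, 1091 and 106 in that order. Depth limited Fosl2, Fosb and Jund most, with as few as 45, 52 and 57 reads in a library.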
